A study of Mus musculus with 15 samples.

Results

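The genes described are 8 genes of adipogenic commitment and lipid storage: Pparg, Cebpa, Cebpb, Cebpd, Lpl, Plin2, Lipe and Agt. They were chosen by name with their levels in Il33+ and Il33- stromal cells of white adipose tissue (WAT) already known, so the difference between those populations is described and not tested. Of the 8 genes, 7 had a value among the 10222 genes of the series, and Cebpa was not analysed here.

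RNA was sequenced from 5 flow-sorted populations, with 3 libraries of each and 15 in all. All cells came untreated, directly after sorting, from C57BL/6 IL33-citrine reporter mice that were heterozygous, so 1 Il33 allele carried the citrine reporter in every population, and ages were not given. WAT stromal cells (WAT-MSCs, labelled mesenteric MSC) lay in a gate without lineage markers, CD45, Epcam, CD31 or CD24 and with PDGFRα, CD34, Sca1 and Podoplanin, and were divided into IL-33-citrine+ cells (Il33+ WAT-MSCs) and IL-33-citrine- cells (Il33- WAT-MSCs). The other populations were WAT CD31+ endothelial cells, Lung MSC IL33+ cells (lung Il33+ MSCs, whose gate was not described separately) and Lung Epcam+ epithelial cells. Levels are in RPKM, which is scaled for transcript length and for mapped reads, summed over the transcripts of a gene.

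Adipogenesis is a relay of transcription factors. C/EBPβ and C/EBPδ, encoded by Cebpb and Cebpd, are induced early by adipogenic hormones and turn on Pparg and Cebpa, whose products maintain each other and switch on the genes of lipid handling. Lpl encodes lipoprotein lipase, which is secreted and releases fatty acids from circulating triglyceride, Plin2 encodes a protein that coats lipid droplets, Lipe encodes hormone-sensitive lipase, which breaks down stored fat, and Agt encodes angiotensinogen, the secreted precursor of angiotensin that fat cells and their precursors release.

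The sequence just before a RefSeq start of Plin2, Agt and Pparg is shown because these 3 genes had the widest ratio between the WAT-MSC populations described here. RefSeq promoters on GRCm38.p6 (the mm10 assembly named in the submitters' processing notes) were matched for 6 of the 8 genes, with 9 starts, and each sequence below holds the 250 bases before a start, read 5′ to 3′ on the strand of the gene. Capitals mark matches to any of 4 motifs searched on both strands: AGGTCA (a repeat unit of nuclear receptor sites), TTGCNNAA (the C/EBP core), CCAAT (NF-Y) and TATAAA (the TATA box).
Plin2, chr4:86670060-86670309, minus strand: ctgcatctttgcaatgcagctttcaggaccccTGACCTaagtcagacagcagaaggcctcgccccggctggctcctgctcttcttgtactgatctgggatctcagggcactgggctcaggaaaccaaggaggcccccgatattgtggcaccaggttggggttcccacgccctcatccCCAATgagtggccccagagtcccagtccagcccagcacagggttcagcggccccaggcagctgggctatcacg
Agt, chr8:124569707-124569956, minus strand: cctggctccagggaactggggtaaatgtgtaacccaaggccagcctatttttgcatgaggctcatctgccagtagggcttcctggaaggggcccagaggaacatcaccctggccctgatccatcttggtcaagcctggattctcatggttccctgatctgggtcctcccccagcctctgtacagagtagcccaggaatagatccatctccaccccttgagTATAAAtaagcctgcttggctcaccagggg
Pparg, the most downstream of 3 starts, chr6:115421816-115422065, plus strand: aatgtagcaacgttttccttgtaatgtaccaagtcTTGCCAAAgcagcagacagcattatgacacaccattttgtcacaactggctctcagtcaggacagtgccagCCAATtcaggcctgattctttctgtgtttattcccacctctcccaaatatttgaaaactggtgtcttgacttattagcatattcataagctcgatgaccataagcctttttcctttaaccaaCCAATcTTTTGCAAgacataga

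Among all 32851 promoters of 250 bases, AGGTCA was present in 14%, TTGCNNAA in 9.56%, CCAAT in 33.9% and TATAAA in 12.4%. The Plin2 sequence held AGGTCA on the other strand, beginning 218 bases before the start, and CCAAT 73 bases before it. The Agt sequence held TATAAA 30 bases before the start, and the downstream Pparg start had TTGCNNAA at 215 bases and, on the other strand, at 16 bases, with CCAAT at 144 and 22 bases. The other Pparg starts each held AGGTCA, at 28 and at 9 bases, the Cebpa start held TATAAA at 30 bases, and the Cebpb start and both Lipe starts held none of the 4 motifs. Lpl and Cebpd were not matched. These matches describe letters only, and the table did not pair starts with the transcripts measured.

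In the genome, Pparg spans chr6:115360879-115490404, Plin2 chr4:86626910-86670217, Lpl chr8:68880555-68906932, Agt chr8:124556587-124569706, Cebpb chr2:167688915-167690432, Cebpd chr16:15887286-15889545 and Lipe chr7:25379527-25398486 (GRCm38.p6). Part of the printed Plin2 sequence lay inside the Plin2 span, and the sequences before the Pparg and Lipe starts lay wholly inside theirs. Those starts are therefore not the outer boundaries of these genes. Pparg was represented by 1 of 4 curated RefSeq mRNAs and Lipe by 1 of 2, so other isoforms were not measured separately. Cebpb was listed as 3 transcripts with identical values, and its summed level is therefore 3 times that of any of them.

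Library depth was similar, at 42711843 to 60773158 alignments per library. The percentage of transcripts listed at 0 ranged from 1.87 to 10.9%, highest in replicate 1 of the endothelial cells (10.9%) and next in replicate 1 of the Il33- WAT-MSCs (7.41%). Il33 itself had 38.7, 78.5 and 41.9 RPKM in Il33+ WAT-MSCs and 6.76, 4.31 and 4.49 RPKM in Il33- WAT-MSCs. The summed level of 11 stromal markers was 5203 to 9056 RPKM in the 6 WAT-MSC libraries, 10 endothelial markers summed to 677 to 817 RPKM in endothelial cells against 3.56 to 33.1 RPKM in WAT-MSCs, and Epcam had 25.9 to 39.8 RPKM in epithelial cells. The endothelial libraries also held stromal RNA, with Dcn at 936, 916 and 1472 RPKM and Pdgfra at 24.4, 28.1 and 35.7 RPKM. The labelled cell types therefore had their defining markers, and the endothelial population was not free of stromal transcripts.

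Lpl was the most abundant of the 7 genes in both WAT-MSC populations and in endothelial cells, Cebpd exceeded it in all 3 lung Il33+ MSC libraries, and Pparg and Lipe were the scarcest in WAT-MSCs. On this length-scaled measure, only 0.812% of the 10222 genes had a higher mean than Lpl in Il33- WAT-MSCs and 1.47% in Il33+ WAT-MSCs, whereas 64.6% and 90.2% of genes were above Pparg. Lpl alone held 55.8 to 71.7% of the summed RPKM of the 7 genes in the 6 WAT-MSC libraries. The ratio of the highest to the lowest population mean ran from 2.50 for Cebpb to 705 for Agt.

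**Figure D1:**
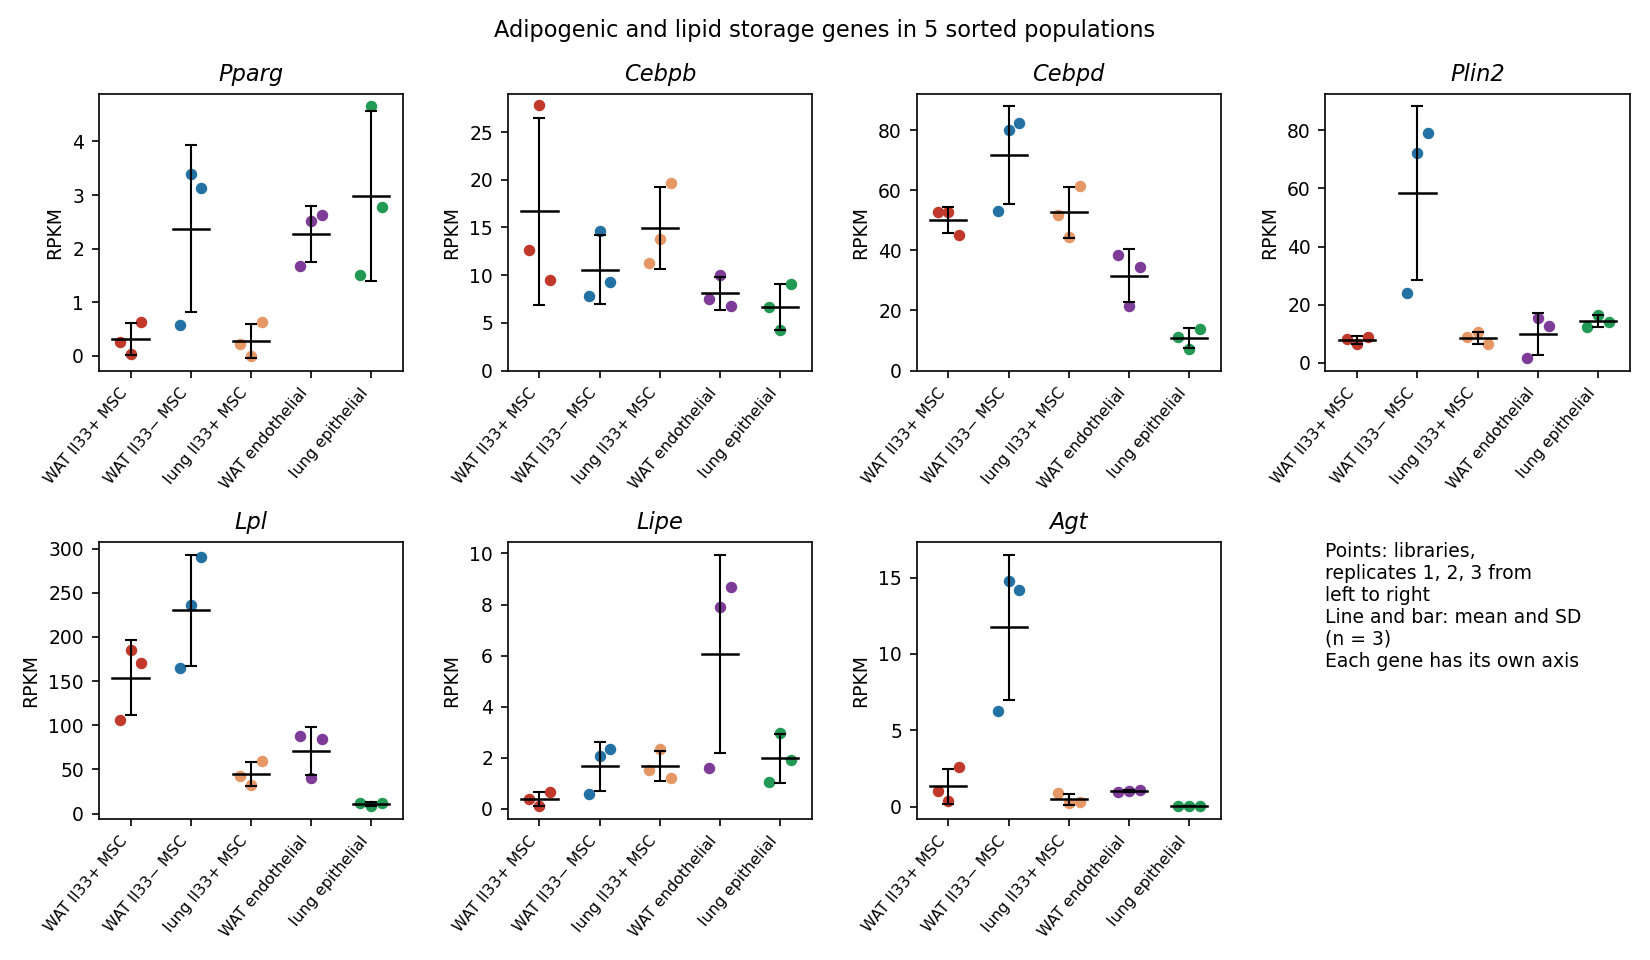
RPKM on a linear axis of its own for each of the 7 genes, with 1 point for each of the 15 libraries and, for each of the 5 populations, a line at the mean and a bar for the SD (n = 3). Plin2 and Agt lay highest in all 3 Il33- WAT-MSC libraries, and Lpl lay lowest in epithelial cells at 8.18 to 12.3 RPKM.

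Of the early factors, Cebpd, which encodes C/EBPδ, had 52.7, 52.6 and 45.1 RPKM in Il33+ WAT-MSCs (50.2 ± 4.35, SD, n = 3) and 53.0, 80.0 and 82.3 RPKM in Il33- WAT-MSCs (71.8 ± 16.3). The lowest Il33- library was just above the highest Il33+ library, so the libraries did not overlap, by a margin of less than 1 RPKM. Cebpd had 51.9, 44.5 and 61.5 RPKM in lung Il33+ MSCs, 38.5, 21.6 and 34.3 RPKM in endothelial cells and 11.3, 7.12 and 13.8 RPKM in epithelial cells. The 3 stromal populations overlapped in part with each other and lay above the endothelial cells, which lay above the epithelial cells.

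Cebpb, encoding C/EBPβ, had 12.7, 27.9 and 9.48 RPKM in Il33+ WAT-MSCs (16.7 ± 9.82, SD, n = 3) and 7.80, 14.7 and 9.30 RPKM in Il33- WAT-MSCs (10.6 ± 3.61). It was the only gene of the 7 with a higher mean in Il33+ than in Il33- WAT-MSCs, and the libraries overlapped. Its level was 11.3, 13.8 and 19.7 RPKM in lung Il33+ MSCs, 7.47, 10.1 and 6.78 RPKM in endothelial cells and 6.66, 4.26 and 9.09 RPKM in epithelial cells. No neighbouring pair in the order of its 5 population means was free of overlap.

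Pparg, the nuclear receptor that commits precursors to the fat cell fate, was low throughout. Its level was 0.25, 0.04 and 0.63 RPKM in Il33+ WAT-MSCs (0.307 ± 0.299, SD, n = 3) and 0.58, 3.40 and 3.13 RPKM in Il33- WAT-MSCs (2.37 ± 1.56). Replicates 2 and 3 of the Il33- population stood above every Il33+ library, while its replicate 1 fell among them. Pparg was at 0.21, 0.00 and 0.63 RPKM in lung Il33+ MSCs, 1.67, 2.51 and 2.63 RPKM in endothelial cells and 1.51, 4.66 and 2.77 RPKM in epithelial cells. The endothelial and epithelial libraries all lay above both Il33+ stromal populations, and overlapped with the Il33- WAT-MSCs.

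Among the genes of lipid handling, Lpl had 106, 185 and 171 RPKM in Il33+ WAT-MSCs (154 ± 42.3, SD, n = 3) and 165, 236 and 290 RPKM in Il33- WAT-MSCs (230 ± 63.0), with overlap. It had 42.7, 32.2 and 59.6 RPKM in lung Il33+ MSCs, 87.9, 39.9 and 84.6 RPKM in endothelial cells and 12.3, 8.18 and 11.5 RPKM in epithelial cells. Every WAT-MSC library was above every library of the other 3 populations.

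Plin2, the lipid droplet coat protein, had 8.13, 6.37 and 9.02 RPKM in Il33+ WAT-MSCs (7.84 ± 1.35, SD, n = 3) and 24.0, 72.1 and 79.0 RPKM in Il33- WAT-MSCs (58.3 ± 30.0). All 3 Il33- libraries were above all 3 Il33+ libraries, with replicate 1 at the low end of the Il33- population. Plin2 had 8.87, 10.6 and 6.41 RPKM in lung Il33+ MSCs, 1.72, 15.5 and 12.8 RPKM in endothelial cells and 12.5, 16.6 and 14 RPKM in epithelial cells. The Il33+ stromal cells of WAT and lung overlapped, and the Il33- WAT-MSCs exceeded the epithelial cells, the next population in order, without overlap.

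Lipe, the gene of hormone-sensitive lipase, had 0.38, 0.10 and 0.67 RPKM in Il33+ WAT-MSCs (0.383 ± 0.285, SD, n = 3) and 0.57, 2.09 and 2.35 RPKM in Il33- WAT-MSCs (1.67 ± 0.961), with overlap. It had 1.53, 2.34 and 1.21 RPKM in lung Il33+ MSCs, 1.62, 7.92 and 8.69 RPKM in endothelial cells and 1.06, 2.97 and 1.92 RPKM in epithelial cells. Its highest levels were in replicates 2 and 3 of the endothelial cells, and no neighbouring populations in its order were free of overlap.

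Agt, the angiotensinogen gene, had 1.01, 0.39 and 2.61 RPKM in Il33+ WAT-MSCs (1.34 ± 1.15, SD, n = 3) and 6.28, 14.8 and 14.2 RPKM in Il33- WAT-MSCs (11.8 ± 4.75), without overlap. Its level was 0.88, 0.24 and 0.28 RPKM in lung Il33+ MSCs, 0.98, 1.02 and 1.06 RPKM in endothelial cells and 0.02, 0.01 and 0.02 RPKM in epithelial cells. The Il33- WAT-MSCs lay above every other library of the series, and the epithelial cells lay below every other library.

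Set side by side, the mean level was higher in Il33- than in Il33+ WAT-MSCs for 6 of the 7 genes. The ratio of means was 8.80 for Agt, 7.73 for Pparg, 7.44 for Plin2, 4.36 for Lipe, 1.5 for Lpl and 1.43 for Cebpd, and 0.635 for Cebpb. On the log2(RPKM + 1) scale, which understates the change of genes with low levels, the Il33+ minus Il33- difference was -2.59 (SE 0.40) for Plin2, -2.48 (SE 0.43) for Agt, -0.58 (SE 0.29) for Lpl, -0.49 (SE 0.24) for Cebpd and 0.51 (SE 0.38) for Cebpb. Pparg (-1.25) and Lipe (-0.89) were too low in too many libraries to enter the fit across all genes, which took genes that reached 1 RPKM in 3 or more of its libraries. The libraries of Plin2, Agt and Cebpd did not overlap and those of the other 4 genes did. Across the 8448 genes fitted, 8.65% were lower in every Il33+ than in every Il33- library and 8.85% were higher, and nothing is read from that comparison because the difference itself chose the genes.

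The sign of the difference held for Plin2, Agt, Lpl, Cebpd and Cebpb when any 1 library was left out. The Plin2 difference ranged from -3.12 to -2.28 and the Agt difference from -2.85 to -2.16 as each of the 6 libraries was omitted, and the Cebpb difference ranged from 0.09 to 0.82. All 7 genes were lowest in replicate 1 among the Il33- libraries, and Pparg, Plin2, Agt and Lipe were lowest in replicate 2 among the Il33+ libraries. Replicate 1 of the Il33- WAT-MSCs also had the most transcripts at 0 of the 6 libraries (7.41%), and the part of this in its low values was not tested.

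Transcripts of mature fat cells varied between the same libraries. Of 10 mature adipocyte markers, 3 had a value (Car3, Cfd and Aqp7), and their summed level was 1.66, 1.48 and 2.62 RPKM in Il33+ WAT-MSCs and 0.56, 15.5 and 14.2 RPKM in Il33- WAT-MSCs. Car3, encoding a carbonic anhydrase abundant in fat cells, made up most of the sum in replicates 2 and 3 of the Il33- WAT-MSCs, at 0.10, 14.8 and 11.2 RPKM in the 3 libraries, and Cfd, the adipsin gene, was listed at 0 in all Il33+ libraries. Replicate 1 of the Il33- WAT-MSCs, with the lowest marker sum of the 6 libraries, had 24.0 RPKM of Plin2 and 6.28 RPKM of Agt, above all Il33+ libraries, and its Pparg level of 0.58 RPKM was within their range. Macrophage markers, 5 of 10 with a value, summed to 9.44, 6.85 and 13.1 RPKM in Il33+ and 35.6, 50.4 and 17.7 RPKM in Il33- WAT-MSCs. In replicate 1 of the Il33- WAT-MSCs most of this was Cd68 (32.0 RPKM), with Csf1r at 0.27, Mrc1 at 0.01 and C1qb at 0 RPKM. In lung Il33+ MSCs the sum was 123 to 162 RPKM, and Lyz2 made up most of it (105 to 145 RPKM). The sum of mesothelial markers (8 of 9 with a value) moved the other way, from 40.1 to 129 RPKM for Il33+ libraries against 21.5 to 37.3 RPKM for Il33- libraries. Wt1 did not follow, with means of 11.8 RPKM (Il33+) and 15.9 RPKM (Il33-) and overlap. It made up nearly all of the sum in replicate 1 of the Il33- WAT-MSCs (23.61 of 23.65 RPKM), where Upk3b, Upk1b, Bnc1 and Krt19 were listed at 0. Pericyte and smooth muscle markers (8 of 9 with a value) also had a higher sum in Il33+ WAT-MSCs, at 30.9 to 37.9 against 6.29 to 15.7 RPKM. Abcc9 and Rgs5 carried that sum, while Notch3 was lower in Il33+ (0.02 to 0.57 RPKM) than in Il33- WAT-MSCs (1.17 to 2.56 RPKM) and Mcam, Acta2 and Myh11 overlapped. Across populations Abcc9 did not follow Rgs5. Its mean was 84.6 RPKM in lung Il33+ MSCs and 15.4 RPKM in endothelial cells, where Rgs5 had 0.503 and 188 RPKM. Kcnj8 was also highest in lung Il33+ MSCs (18.6 RPKM). The part of these other cell types in the differences was not tested, and in sorted bulk samples fewer cells of a type and less RNA per cell cannot be told apart.

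**Figure D2:**
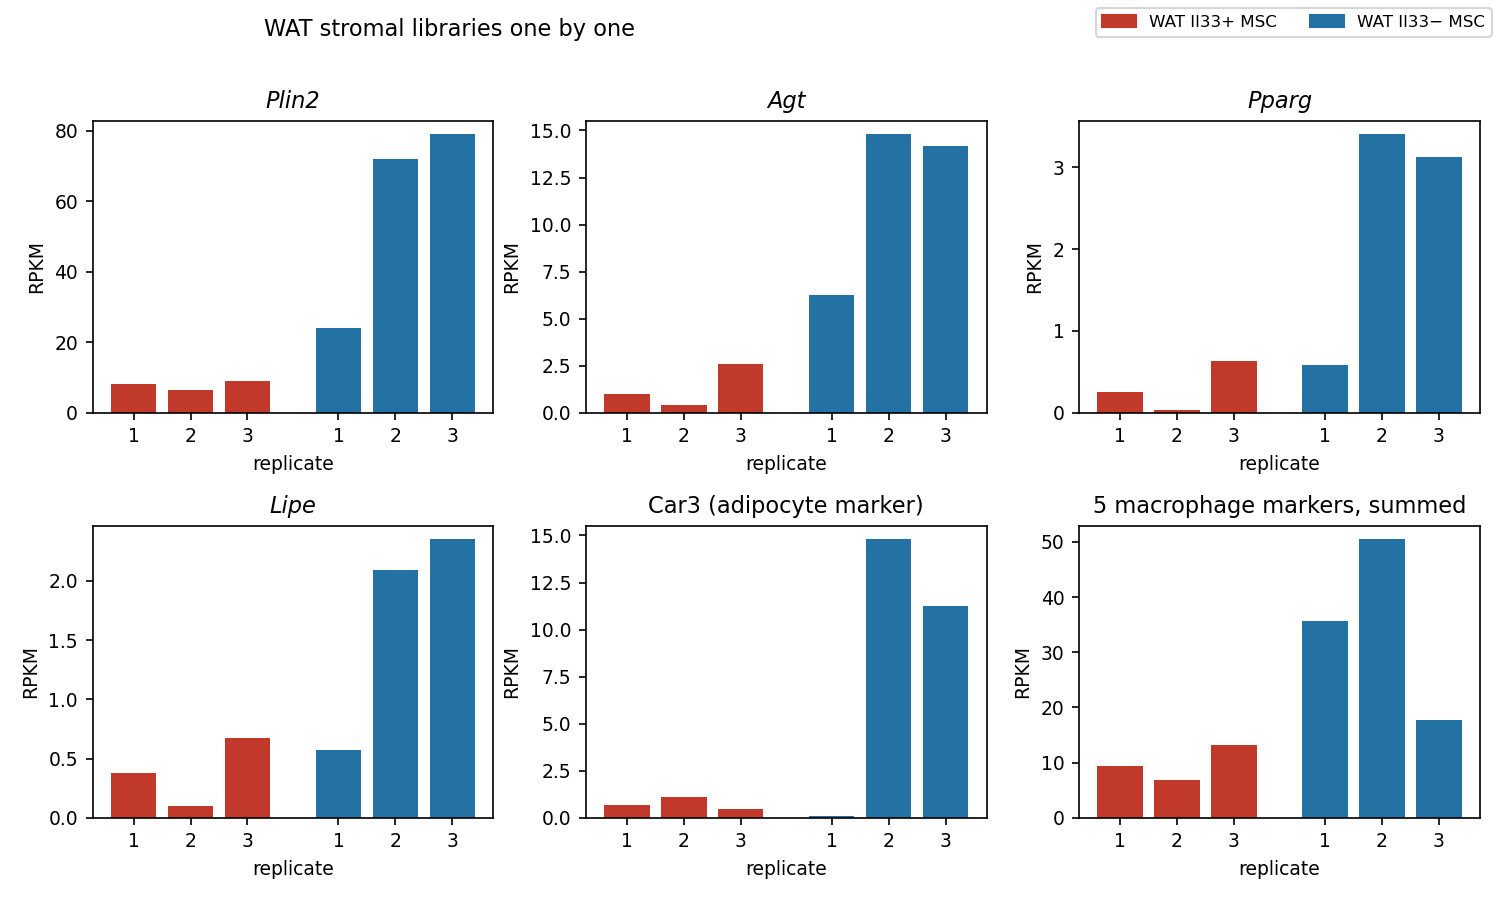
RPKM of Plin2, Agt, Pparg, Lipe, the adipocyte marker Car3 and 5 summed macrophage markers in each of the 6 WAT-MSC libraries, with 1 bar for each replicate, red for Il33+ and blue for Il33-. Replicate 1 of the Il33- WAT-MSCs had the lowest Car3 level of the 6 libraries (0.10 RPKM), and its Plin2 and Agt levels were 24.0 and 6.28 RPKM. Its macrophage sum of 35.6 RPKM was mostly Cd68 (32.0 RPKM).

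The wider programme around the 7 genes was compared between Il33+ and Il33- WAT-MSCs through lists written from general knowledge of fat cell biology. These lists were chosen with earlier results of these data known. Their counts and p-values therefore describe this contrast and are not independent support. In limma, 78 of 8448 genes were higher in Il33+ WAT-MSCs at an adjusted p under 0.05 (0.923%) and 55 were lower (0.651%), 1.57% in either direction, with a median log2 difference over all genes of -0.01. Whether the libraries of a population came from separate mice or sorts was not given, so p-values measure only the spread between these samples, which may be technical. Markers of interstitial progenitors, the CD26+ fibroblast-like cells regarded as upstream of committed preadipocytes, were higher in Il33+ WAT-MSCs for 4 of 9 genes tested and lower for 0, and all 9 had a difference above 0 (median 1.79). Markers of committed preadipocytes were lower for 2 of 5 genes tested and higher for 0, and 2 of the 5 had a difference above 0 (median -0.35).

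Among the interstitial progenitor markers, Pi16, encoding a peptidase inhibitor, had 81.0, 60.8 and 85.7 RPKM in Il33+ WAT-MSCs and 10.1, 12.7 and 14.5 RPKM in Il33- WAT-MSCs, a log2 difference of 2.52 (SE 0.24, limma adjusted p = 0.00126). Sema3c, a semaphorin gene, had 26.4, 47.2 and 26.2 RPKM against 5.88, 6.58 and 7.69 RPKM (2.10, adjusted p = 0.00462). Cd55, a complement regulator, had 109, 181 and 111 RPKM against 24.2, 35.1 and 34.8 RPKM (2.04, adjusted p = 0.00435). The groups did not overlap for any of these genes, nor for Ly6c1 (88.2, 169 and 138 RPKM against 27.8, 38.5 and 44.0 RPKM, 1.79, adjusted p = 0.00965). Dpp4, which encodes CD26 itself, had a log2 difference of 1.30 and missed the threshold (adjusted p = 0.0579), with 6.50, 8.03 and 9.31 RPKM against 2.62, 2.85 and 2.37 RPKM. The 4 calls remained in all 6 fits that left out a library, and that of Ly6c1 was lost without a filter on low values (adjusted p = 0.0593).

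Of the committed preadipocyte markers, Ggt5, a gamma-glutamyltransferase gene, had 4.01, 3.27 and 3.48 RPKM in Il33+ and 14.8, 17.8 and 14.3 RPKM in Il33- WAT-MSCs, a log2 difference of -1.85 (SE 0.26, limma adjusted p = 0.00613). Col15a1, a basement membrane collagen gene, had 94.4, 79.6 and 121 RPKM against 264, 245 and 233 RPKM (-1.34, adjusted p = 0.0145), and its call was lost without replicate 1 (adjusted p = 0.0744) or 2 (0.0522) of the Il33+ or replicate 2 (0.0616) or 3 (0.0547) of the Il33- WAT-MSCs, and without a filter (0.0518). The Ggt5 call was lost with lane 1 alone (0.0526). Replicate 1 of the Il33- WAT-MSCs, low in all 7 genes of the main list, was not low in either of these. The fatty acid carriers of the same list did not follow: Fabp4 was 4.5, 7.13 and 8.64 RPKM in Il33+ and 2.64, 16.7 and 12.8 RPKM in Il33- WAT-MSCs, and Cd36 was 2.03, 4.43 and 3.45 RPKM against 0.48, 4.59 and 5.10 RPKM, with overlap in both. Icam1, the remaining marker tested, did not follow either, with a log2 difference of 0.01 (limma adjusted p = 0.998).

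The lists of lipid metabolism held no call. None of 10 lipid droplet genes (median log2 difference 0.27), 8 lipolysis genes (-0.12), 17 genes of fatty acid uptake and binding (-0.18) or 15 genes of fatty acid and triglyceride synthesis (-0.22) passed the threshold in limma, and at an unadjusted p under 0.05 the counts were 1, 3, 1 and 1. In lipolysis, Mgll, the monoglyceride lipase gene, had a log2 difference of 1.59 (adjusted p = 0.0726), with 7.62, 3.25 and 4.88 RPKM in Il33+ and 0.59, 0.93 and 1.55 RPKM in Il33- WAT-MSCs. G0s2, whose product restrains fat breakdown, had -1.71 (adjusted p = 0.179), with 2.17, 0.25 and 5.46 RPKM against 7.85, 6.75 and 12.2 RPKM. Both genes had libraries that did not overlap, and both were named after their values were seen. A miss of the threshold with 3 libraries does not show that levels were alike.

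Among 20 other adipogenic transcription factors and co-regulators, 1 was higher and 0 lower in Il33+ WAT-MSCs (median -0.23). It was Zfp423, a zinc finger factor of preadipocyte commitment, at 11, 12.4 and 14.3 RPKM against 4.86, 2.93 and 5.45 RPKM (1.35, adjusted p = 0.0478), and this call was lost when any 1 of the 6 libraries was left out (adjusted p = 0.0665 to 0.222). Of 18 inhibitors of adipogenesis, 1 was lower and 0 higher (median -0.02): Sox9, a factor of chondrocyte and progenitor cells, at 6.44, 6.4 and 8.72 RPKM against 18, 33.6 and 35.9 RPKM (-1.83, adjusted p = 0.0128), a call lost without replicate 1 of the Il33+ (0.0630) or replicate 2 (0.0638) or 3 (0.0640) of the Il33- WAT-MSCs, with all 15 libraries in one fit (0.185), with lane 1 alone (0.0526) and without a filter (0.0593).

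No gene passed among 9 partners of Agt in the renin angiotensin system (median -0.12), 13 glucocorticoid-responsive genes (0.24) or 19 immediate early and stress genes (-0.23) in limma, with 1, 3 and 2 genes at an unadjusted p under 0.05. Agtr1a, which encodes the angiotensin receptor, had 12.1, 13.7 and 9.53 RPKM in Il33+ and 17.7, 15.6 and 9.85 RPKM in Il33- WAT-MSCs (-0.24). Of the marker lists of other cells, 2 of 7 mesothelial genes tested were higher in Il33+ WAT-MSCs, Upk1b (2.90, adjusted p = 0.0393) and Gpm6a (2.64, adjusted p = 0.0174), and 1 of 4 pericyte genes, Abcc9 (2.96, adjusted p = 0.00126). Leaving out a library lost the Upk1b call in 4 of 6 fits (adjusted p up to 0.179) and the Gpm6a call in 3 of 6 (up to 0.0939), and the Abcc9 call in 0. Without a filter Upk1b (0.188) and Gpm6a (0.107) were not called. None passed among 11 stromal, 7 endothelial, 3 lung epithelial, 2 macrophage genes and 1 mature adipocyte gene tested in limma, where counts at an unadjusted p under 0.05 were 1, 1, 0, 1 and 1.

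**Figure D3:**
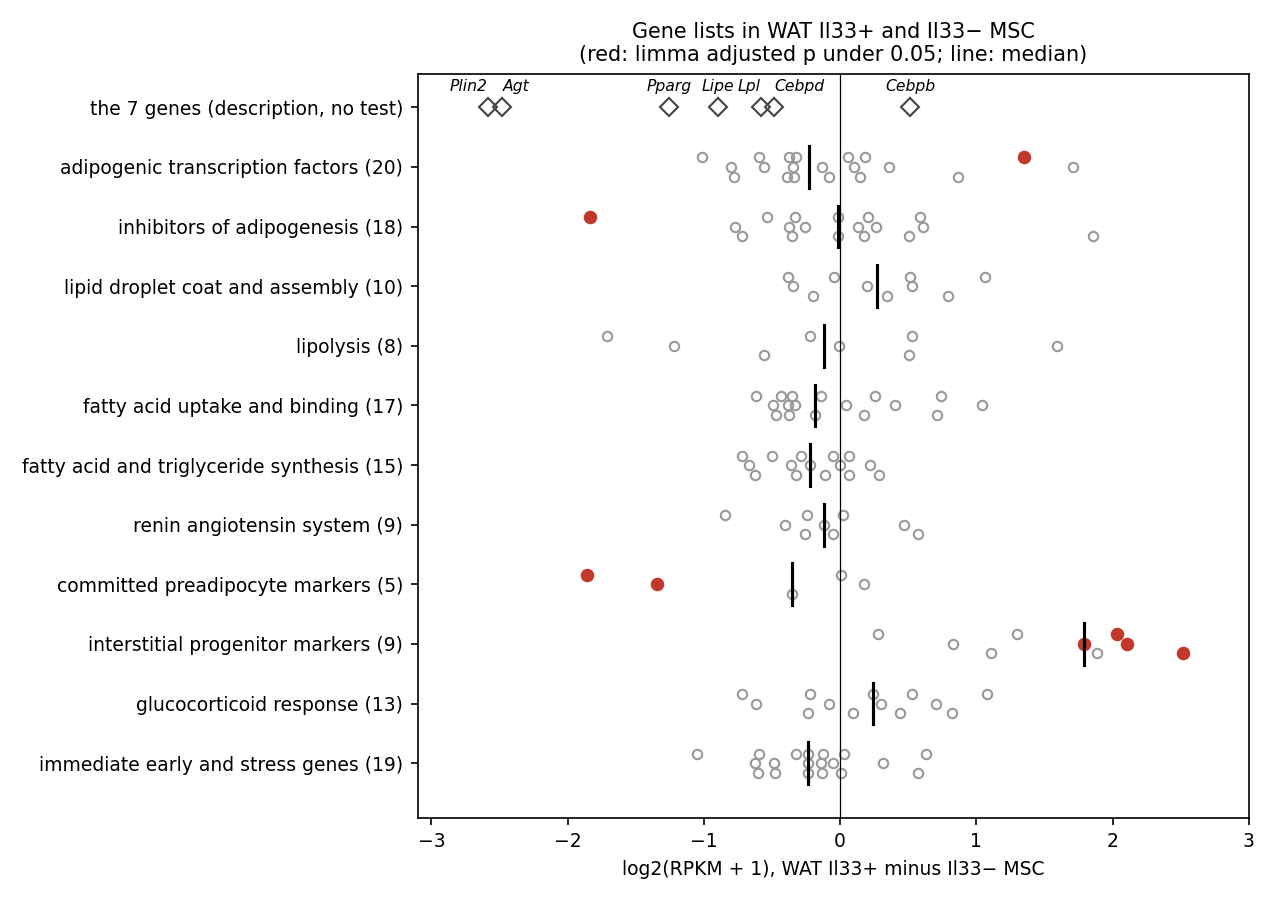
Log2(RPKM + 1) difference of Il33+ minus Il33- WAT-MSCs for each tested gene of 11 lists, with the number tested in brackets, black lines for list medians, red points for genes past the limma threshold and open diamonds for the 7 genes, which were not tested. All 9 interstitial progenitor markers lay above 0, with a median of 1.79, while Plin2 and Agt lay below every point of the lists.

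Whether these genes mark WAT stroma as such was asked by setting the mean of both WAT-MSC populations against WAT endothelial cells. That mean does not use the difference by which the genes were chosen, but the Il33- libraries enter it, and values for Il33+ WAT-MSCs alone are given beside the genes whose call they change. Of 9015 genes tested, 3.29% were higher in WAT-MSCs and 5.45% lower (8.74% in either direction), with a median of 0.18 over all genes. Of the 7 genes, Lpl and Cebpd were called higher and Lipe was called lower.

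Lpl was higher in WAT-MSCs by 1.44 on the log2(RPKM + 1) scale (SE 0.31, 95% confidence interval 0.76 to 2.13, limma adjusted p = 0.0129). The call was lost without replicate 2 of the endothelial cells, the lowest of that population at 39.9 RPKM (1.08, adjusted p = 0.0835), and for Il33+ WAT-MSCs alone (1.15, adjusted p = 0.163). Cebpd was higher by 0.93 (SE 0.25, 0.39 to 1.48, adjusted p = 0.0384). Its call was less steady: it was lost without replicate 2 of the endothelial cells (0.69, adjusted p = 0.182), without replicate 1 (0.0859), 2 (0.0749) or 3 (0.0690) of the Il33+ or replicate 2 (0.0916) or 3 (0.0954) of the Il33- WAT-MSCs, and under median-ratio scaling (0.73, adjusted p = 0.133), which lowered the median of all genes from 0.18 to 0.03. It was also lost for Il33+ WAT-MSCs alone (0.69, adjusted p = 0.298), for Il33- WAT-MSCs alone (1.18, adjusted p = 0.0754) and with lane 1 alone (adjusted p = 0.155). The endothelial libraries also held stromal RNA, with 11 stromal markers at 2348 to 4844 RPKM in sum against 5203 to 9056 RPKM in WAT-MSCs. Its part in the endothelial levels of Lpl, Cebpd and the other genes was not tested.

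Lipe was lower in WAT-MSCs, by -1.71 (SE 0.46, -2.73 to -0.70, limma adjusted p = 0.0411). Of the fits that left out a library, the one without replicate 1 of the endothelial cells kept the call (-2.32, adjusted p = 0.00317), and omission of any other of the 9 libraries gave an adjusted p of 0.0605 to 0.173. The call was also lost without a filter (adjusted p = 0.0651), with a pseudocount of 0.1 (0.0713), with lane 1 alone (0.212) and for Il33+ (0.0828) or Il33- WAT-MSCs (0.336) alone. The endothelial libraries also had the highest sums of mature adipocyte markers, 19.5, 74.6 and 59.8 RPKM, mostly Aqp7, lowest in replicate 1, where Lipe too was lowest. The part of fat cell RNA in this difference was not tested.

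The other 4 genes were not called. The difference was 1.34 for Agt (0.48 to 2.20, limma adjusted p = 0.0578), 1.33 for Plin2 (0.13 to 2.53, adjusted p = 0.178), -0.71 for Pparg (-1.56 to 0.14, adjusted p = 0.315) and 0.58 for Cebpb (-0.18 to 1.34, adjusted p = 0.358). Agt passed without replicate 2 of the Il33+ WAT-MSCs (1.5, adjusted p = 0.0434) or replicate 1 of the Il33- WAT-MSCs (1.52, adjusted p = 0.0350), with quantile normalization (0.0376), with all 15 libraries in one fit (0.0112) and for Il33- WAT-MSCs alone (2.58, adjusted p = 0.00884), while Il33+ WAT-MSCs alone gave 0.10 (adjusted p = 0.940). These intervals include sizable differences, so the levels are not shown to be alike.

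Around them, the fatty acid carriers Fabp4, Cd36 and Fabp5 were on the endothelial side. The list of fatty acid uptake and binding as a whole was not, with 11 of 18 differences above 0 (median 0.33). Fabp4, a cytosolic fatty acid binding protein gene, had 187 to 397 RPKM in endothelial cells and 2.64 to 16.7 RPKM in WAT-MSCs (-4.89, limma adjusted p = 4.75e-05), and Cd36, the fatty acid translocase gene, had 88.8 to 113 RPKM against 0.48 to 5.10 RPKM (-4.69, adjusted p = 4.07e-05). In all, 3 of 18 genes of fatty acid uptake and binding were lower in WAT-MSCs and 2 higher, with Fabp5 lower (-2.72) and Vldlr, a lipoprotein receptor gene, higher (1.79, a call lost without replicate 2 of the endothelial cells, adjusted p = 0.0531). Of 13 lipolysis genes, 5 were lower and 0 higher, among them Aqp7 (-3.95), a glycerol channel gene, Mgll (-2.87), and Pnpla2 (-2.28), the adipose triglyceride lipase gene. Pnpla2 was highest in replicate 1 of the endothelial cells, at 35.1 RPKM against 7.0 and 5.84 RPKM. For Il33+ WAT-MSCs alone, Vldlr (1.57, adjusted p = 0.144) and Pnpla2 (-2.02, adjusted p = 0.161) were not called. Lpl thus stood apart in direction from Fabp4, Cd36 and Lipe, being higher in WAT-MSCs. The endothelial libraries also held more RNA of other cells, with pericyte and smooth muscle markers at 214 to 288 RPKM in sum (Rgs5 -4.56, Myh11 -3.52 and Acta2 -3.25, all called) and mesothelial markers at 56.7 to 220 RPKM (Upk3b -2.64, Lrrn4 -2.53 and Msln -1.87, calls lost in 1, 5 and 7 of the 9 fits that left out a library). The part of these cells in the differences of the lipid genes was not tested.

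Of the remaining lists, adipogenic factors had 3 of 21 genes higher and 0 lower, namely Ebf2 (1.38), Klf9 (1.11) and Nfia (0.82). Inhibitors of adipogenesis had 2 of 19 lower, Gata2 (-2.65) and Foxo1 (-1.03), lipid droplet genes 1 of 10 lower, Cav1 (-2.65), and synthesis genes 2 of 17 higher, Fads2 (2.16) and Fads1 (1.14), and 1 lower, Thrsp (-3.80). Gata2 entered this fit only through the endothelial libraries and dropped out when any of them was omitted. The renin angiotensin list had 1 of 9 higher, Enpep (1.69), which encodes an angiotensin-cleaving aminopeptidase. Committed preadipocyte markers gave 2 of 5 higher, Col15a1 (1.76) and Ggt5 (1.36), and 2 lower, Fabp4 and Cd36, and interstitial progenitor markers 1 of 10 lower, Ly6c1 (-1.59). Glucocorticoid-responsive genes gave 4 of 14 higher and 1 lower, and immediate early and stress genes 2 of 19 higher and 1 lower. Several of these calls rested on single libraries: Ebf2 (limma adjusted p = 0.0529) and Klf9 (0.102) were lost without replicate 2 of the endothelial cells, and of the 9 fits that left out a library Nfia was lost in 6 (up to 0.114), Foxo1 in 8 (0.127), Fads2 in 6 (0.0821), Fads1 in 7 (0.163) and Ggt5 in 7 (0.157). For Il33+ WAT-MSCs alone, the 15 higher and 15 lower genes of these lists became 1 higher, Mt1, and 9 lower. Among those no longer called were Ggt5 (0.43, adjusted p = 0.729), Col15a1 (1.09, 0.116), Ebf2 (1.19, 0.141), Klf9 (1.07, 0.101), Nfia (0.87, 0.114), Enpep (1.26, 0.162), Fads1 (0.80, 0.362), Fads2 (2.01, 0.229), Foxo1 (-0.93, 0.243) and Ly6c1 (-0.69, 0.382). List medians ranged from -0.54 for committed preadipocyte markers to 0.67 for glucocorticoid-responsive genes, with adipogenic factors at 0.30, lipolysis at -0.07 and fatty acid uptake at 0.33, against 0.18 over all genes.

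The tissue of origin was compared next, again with the mean of both WAT-MSC populations, against lung Il33+ MSCs. These tests share the WAT-MSC libraries with those above. Of 8879 genes tested, 3.54% were higher in WAT-MSCs and 5.01% lower (8.55% in either direction), and Lpl, Agt and Plin2 were called higher while 0 of the 7 genes were called lower.

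Lpl differed by 2.05 on the log2(RPKM + 1) scale (SE 0.25, 1.5 to 2.6, limma adjusted p = 1.46e-04), and this call remained in all 9 fits that left out a library. Agt differed by 1.83 (SE 0.36, 1.04 to 2.61, adjusted p = 0.00534), also called in all 9, although with lane 1 libraries alone it was 1.17 (adjusted p = 0.718). No lung Il33+ MSC library reached 1 RPKM of Agt, so the gene entered this fit through the WAT-MSC libraries (adjusted p = 0.0164 without a filter). Il33- WAT-MSCs alone differed by 3.06, whereas the Il33+ WAT-MSC libraries (0.39 to 2.61 RPKM) overlapped with the lung libraries (0.24 to 0.88 RPKM), and Agt did not enter a fit of those 2 populations. The Il33- libraries in this call were among those that chose the gene. Plin2 differed by 1.18 (SE 0.33, 0.47 to 1.90, adjusted p = 0.0415), and the populations had unlike values: Il33+ WAT-MSCs alone differed from lung Il33+ MSCs by -0.11 (adjusted p = 0.888) and Il33- WAT-MSCs alone by 2.48. Of the fits that left out a library, its call was kept only without replicate 2 of the Il33+ or replicate 1 of the Il33- WAT-MSCs, and omission of any of the other 7 libraries gave an adjusted p of 0.0722 to 0.197. It was also lost with lane 1 alone (0.742), with all 15 libraries in one fit (0.253), without a filter (0.0795), with a pseudocount of 0.1 (0.0535) and with the most abundant transcript (0.0505).

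Neither C/EBP gene was called between the stroma of the tissues. The difference was 0.18 for Cebpd (-0.23 to 0.60, limma adjusted p = 0.697) and -0.21 for Cebpb (-0.89 to 0.47, adjusted p = 0.803). Lipe differed by -0.51 (-1.19 to 0.17, adjusted p = 0.430), and Pparg, at 0.63 RPKM or less in every lung Il33+ MSC library, did not enter this fit. Of the lists, adipogenic factors had 2 of 21 higher in WAT-MSCs, Ebf1 (1.84) and Ebf2 (1.60), both early B cell factors of adipocyte precursors, and 1 lower, Bmp4 (-1.85). Agtr1a, the angiotensin receptor gene, had 9.53 to 17.7 RPKM in WAT-MSCs and 0.88 to 1.75 RPKM in lung Il33+ MSCs (2.51, adjusted p = 2.77e-05). It was also called for Il33+ WAT-MSCs alone (2.39, adjusted p = 7.12e-04), the population in which Agt overlapped with lung. Of 9 renin angiotensin genes 2 were higher, Agtr1a and Enpep (1.42), and 1 lower, Mme (-1.38). The Enpep call was lost without replicate 1 of the lung Il33+ MSCs (0.0541) and the Mme call without their replicate 1 or 3 (up to 0.107). For Il33+ WAT-MSCs alone, Enpep (0.99, adjusted p = 0.170) and Bmp4 (adjusted p = 0.116) were not called.

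Calls of other lipid genes between the stromal tissues are read against the 8.55% of all genes called. In limma they were 0 of 10 for lipid droplet genes, with 0 at an unadjusted p under 0.05 (median -0.15), 2 of 11 lower for lipolysis, with Mgll (-1.09), 1 of 18 lower for fatty acid uptake, Apoe (-3.13), and 1 of 16 higher for synthesis, Acly (1.30). The medians were -0.12 for lipolysis, 0.06 for uptake and -0.01 for synthesis, against 0.04 over all genes. Committed preadipocyte markers gave 2 of 6 higher, Col15a1 (1.97) and Ggt5 (1.88), and 1 lower, Apoc1 (-1.37), and interstitial progenitor markers 2 of 10 lower, Pi16 (-3.73) and Limch1 (-2.62). Inhibitors of adipogenesis had 3 of 18 lower, Wisp2 (-2.35), Nr2f2 (-0.91) and Id3 (-0.75), glucocorticoid-responsive genes 1 of 14 higher, Sgk1 (1.56), and immediate early genes 1 of 19 higher and 2 lower. With a library left out, the call was lost for Nr2f2 without replicate 1 or 2 of the lung Il33+ MSCs (limma adjusted p up to 0.160), and in 6 of 9 fits for Mgll (up to 0.219) and Apoc1 (0.254), 5 for Id3 (0.160) and 4 for Wisp2 (0.175). Genes not called for Il33+ WAT-MSCs alone were Mgll (-0.29, adjusted p = 0.724), Ggt5 (0.95, 0.0906), Apoc1 (-1.34, 0.125), Wisp2 (-1.42, 0.372), Nr2f2 (-0.62, 0.250) and Id3 (-0.62, 0.0664). Medians of the other lists were 0.17 for adipogenic factors, -0.02 for inhibitors, -0.05 for the renin angiotensin system, 0.39 for committed preadipocyte and -0.21 for interstitial progenitor markers, -0.07 for glucocorticoid-responsive genes and -0.27 for immediate early genes.

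Lung Il33+ MSCs and lung epithelial cells shared no library with the difference that chose the genes. Here 24.4% of 9352 genes were higher in the stromal cells and 18.5% lower (43% in either direction), so a call was common, and the median over all genes was 0.13, or -0.06 under median-ratio scaling. Lpl, Cebpd and Cebpb were higher in lung Il33+ MSCs and Pparg and Plin2 lower.

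Cebpd differed by 2.23 on the log2(RPKM + 1) scale (SE 0.27, limma adjusted p = 1.22e-04) and Lpl by 1.95 (SE 0.27, adjusted p = 3.42e-04). Cebpb differed by 1.07 (SE 0.31, adjusted p = 0.0199), a call lost without replicate 2 of the epithelial cells (0.0774) or replicate 2 (0.0545) or 3 (0.0841) of the lung Il33+ MSCs and under median-ratio scaling (0.84, adjusted p = 0.0543). Pparg differed by -1.59 (SE 0.35, adjusted p = 0.00519). It was at 0.63 RPKM or less in lung Il33+ MSCs and entered the fit only through the 3 epithelial libraries, so it dropped out when any of them was omitted, and without a filter its adjusted p was 0.00659. Plin2 differed by -0.69 (SE 0.25, adjusted p = 0.0483) and was called only without replicate 1 of the epithelial cells among the fits that left out a library, the others giving an adjusted p of 0.0575 to 0.172, and was not called with all 15 libraries in one fit (0.385), a pseudocount of 0.1 (0.0527) or the most abundant transcript (0.0516). Lipe differed by -0.12 (-0.85 to 0.62, adjusted p = 0.802), and Agt was too low to enter the fit, at 0.24 to 0.88 RPKM in stroma and 0.01 to 0.02 RPKM in epithelium. The epithelial libraries had 672 to 1322 RPKM of summed macrophage markers against 123 to 162 RPKM in lung stroma. The excess rested on Lyz2 (658 to 1301 RPKM in epithelium), while Cd68, Csf1r, Mrc1 and C1qb overlapped between epithelium and stroma. The sum is therefore not read as macrophage RNA. The single secretoglobin transcript Scgb1a1 held 57.7 to 62.9% of the summed RPKM of the epithelial libraries. The part of macrophage RNA or of Scgb1a1 in the differences of Pparg, Plin2 and the other genes was not tested.

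**Figure D4:**
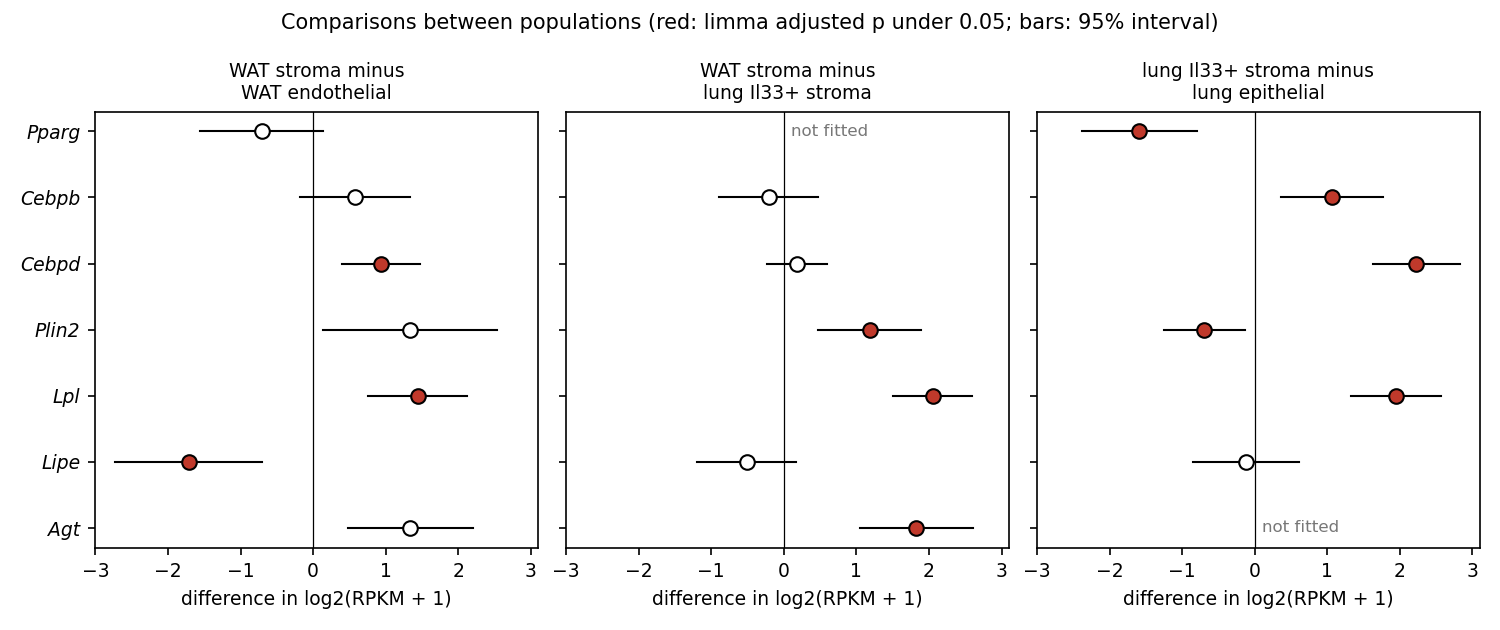
Log2(RPKM + 1) difference with its 95% confidence interval for the 7 genes in 3 comparisons, red where the limma adjusted p was under 0.05, with the mean of both WAT-MSC populations as the first arm in the comparisons with endothelial cells and lung stroma. Lpl lay above 0 in all 3 comparisons, at 1.44, 2.05 and 1.95.

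In the lists, adipogenic factors had 13 of 23 higher in lung stroma and 4 lower, inhibitors 12 of 18 higher and 2 lower, lipid droplet genes 2 of 11 higher and 1 lower, and lipolysis genes 2 of 13 higher and 6 lower. Fatty acid uptake had 4 of 17 higher and 7 lower, synthesis 4 of 17 higher and 5 lower, and the renin angiotensin list 3 of 9 higher, with Ace (2.69) and Anpep (2.41), and 2 lower. Committed preadipocyte markers had 2 of 6 higher and 1 lower, interstitial progenitor markers 5 of 8 higher and 1 lower, glucocorticoid-responsive genes 9 of 14 higher and 3 lower, and immediate early and stress genes 18 of 19 higher and 0 lower. Among the epithelial genes of lipid synthesis and turnover were Gpd1 (-3.80), Scd1 (-2.37) and Ces1d (-4.92), all lower in stroma. Gpd1 entered this fit only through the epithelial libraries and dropped out when any of them was omitted. List medians ranged from -0.22 for lipolysis to 2.23 for immediate early and stress genes, with adipogenic factors at 1.40, inhibitors at 1.30 and fatty acid uptake at -0.06, against 0.13 over all genes.

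The pattern across all 15 libraries, described by the correlation of log2(RPKM + 1) values, placed the genes in no single block. Lpl was most like Cebpd (Pearson r = 0.882) and then Agt (0.771), Plin2 was most like Agt (0.723), and Pparg was most like Lipe (0.622) and least like Cebpb (-0.601). These values share libraries, depth and population, and describe 15 libraries of 5 populations. Among 9560 genes with a mean of at least 1 RPKM, the genes most like Agt were Fam150b (0.974), Bmper (0.913) and Ggt5 (0.906). Fam150b averaged 12.5 RPKM in Il33- WAT-MSCs, 1.2 RPKM in Il33+ WAT-MSCs and 0.873 RPKM or less in the other populations. The genes most like Plin2 were Ogfrl1 (0.886), Trf (0.877), the transferrin gene, and Arhgef17 (0.861), and those most like Pparg were Hipk1 (0.873), Tanc2 (0.858) and Mmd (0.852), whose highest means were in epithelial cells.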

How the data were processed

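RNA from flow-sorted cells was amplified (Ovation RNA-seq System V2) and sequenced (Illumina HiSeq). Per the submitters' processing notes, reads were aligned to mm10 with TopHat2 in Partek, and the authors deposited RPKM values for 12698 transcripts, scaled for transcript length and mapped reads. The rule by which low transcripts were left out was not given in the sources used here. Read counts per gene were not used, so counting error is unknown and errors are between libraries. RPKM was summed per symbol over 10222 genes. Groups came from the sample labels, and 0 value columns lacked a sample.

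The 8 genes and all lists were chosen with earlier results of these data known. R 4.3.3 ran limma 3.58.1 (eBayes with trend) on log2(RPKM + 1) of the genes that reached 1 RPKM in 3 or more libraries of a fit, with Benjamini-Hochberg adjustment over all genes and a threshold of 0.05. The fit was tested on simulated data. Each comparison used the libraries of its populations, so the WAT-MSC libraries entered 3 comparisons and the lung Il33+ MSC libraries 2. The mean of both WAT-MSC populations was the first arm against endothelial cells and lung stroma. In the contrast of Il33+ and Il33- WAT-MSCs, Dpp4, Mgll, G0s2, Fabp4, Cd36, Icam1 and Agtr1a were named after their values were seen. Otherwise, named genes were the 8 genes, the cell type markers and, in each list, up to 4 called genes of largest change. They also included the 3 genes most like Pparg, Plin2 and Agt. Some genes that this rule names are not reported here. Alternatives were a replicate block, the lane, quantile normalization, median-ratio scaling, a fit of all libraries together, a pseudocount of 0.1, other filters, the most abundant transcript, each WAT-MSC population alone and each library left out. Lane 1 held 8 libraries and lane 2 held 7, and in the WAT populations lane 2 held replicate 3 only, so lane and replicate cannot be told apart there. Other steps used Python 3.11.15 (pandas 2.3.3, numpy 2.4.6, matplotlib 3.10.9, scipy 1.17.1).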

Additional observations from a re-analysis of the deposited data

How the results depend on the processing

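Of 437 refits of the genes described, 375 were the same, 50 lost a call, 5 gained one, 6 changed sign and 1 moved. The refit that moved was the Agt difference between WAT-MSC populations, to -3.28 with a pseudocount of 0.1. For tested differences, the same meant an unchanged direction and side of the threshold. For the untested difference between WAT-MSC populations, it meant a change smaller than the residual SD of the gene. The sign changes, all in genes without a stable call, were Plin2 (-0.11), Cebpb (0.046) and Cebpd (-0.059) against lung stroma for Il33+ WAT-MSCs alone, Cebpb (0.32) with lane 1 alone, and Lipe between lung stroma and epithelium without epithelial replicate 2 (0.11) or stromal replicate 3 (0.01), with a range of -0.36 to 0.11 as libraries were left out. Of 2694 refits of the other named genes, 2377 were the same, 317 lost a call and 0 changed sign. The causes were not tested.

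Counts of calls moved more. Between Il33+ and Il33- WAT-MSCs, 78 genes were higher and 55 lower, which became 35 and 18 with lane 1 alone and 31 and 14 without a filter. Median-ratio scaling gave 83 lower and quantile normalization 87 lower. Leaving out a library gave 35 to 55 higher and 11 to 67 lower. Of the pathway lists, 5 genes were higher and 3 lower, which became 8 higher with median-ratio scaling, 3 and 1 without a filter, 1 lower with lane 1 alone, and 4 to 5 higher and 1 to 3 lower with a library left out. Same-numbered libraries of these populations had correlations of 0.04, 0.06 and 0.11 between their deviations. As they were not all over 0.1, the numbers were not taken to pair samples, although each library correlated best with its own number, a hint from the data and not the design, and a fit with the replicate block gave 143 higher, 89 lower and 5 list genes lower.

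Against endothelial cells, 297 genes were higher and 491 lower, which became 189 and 170 with lane 1 alone and 49 and 289 for Il33+ WAT-MSCs alone. It was 553 higher with all libraries in one fit, 466 higher with quantile normalization and 139 higher for Il33- WAT-MSCs alone. Leaving out a library gave 121 to 661 higher and 234 to 421 lower. The share of higher among called genes was 37.7%, against 52.7% with lane 1 alone and 14.5% for Il33+ WAT-MSCs alone. List genes (15 higher, 15 lower) became 7 and 7 with lane 1 alone, 1 and 9 for Il33+ WAT-MSCs alone and 6 higher for Il33- WAT-MSCs alone, with 5 to 21 higher and 9 to 14 lower as libraries were left out.

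Against lung stroma, 314 genes were higher and 445 lower, which became 58 and 58 with lane 1 alone and 209 higher with all libraries in one fit, and 185 to 407 higher and 225 to 447 lower with a library left out. List genes (9 higher, 13 lower) became 3 and 3 with lane 1 alone and 7 lower for Il33+ WAT-MSCs alone, with ranges of 7 to 13 and 7 to 14. Between lung stroma and epithelium, 1734 genes were lower, which became 1069 with a filter at 5 RPKM, and libraries left out gave 1391 to 2128 higher and 776 to 1543 lower, with 61 to 72 and 19 to 28 list genes. A fit with lane 1 alone could not be run there.

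Of the levels, median-ratio scaling put Plin2 at 16.7 RPKM in epithelial cells (14.4 as deposited) and Cebpd at 44.0 RPKM in Il33+ WAT-MSCs (50.2 as deposited). A single Cebpb transcript had 5.56, 3.53, 4.98, 2.70 and 2.22 RPKM in Il33+ and Il33- WAT-MSCs, lung Il33+ MSCs, endothelial and epithelial cells.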
